A study of Mus musculus with 66 samples.

Results

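The nucleus accumbens (NAcc) of wild-type mice was compared between cocaine and saline at zeitgeber time (ZT) 11, 8 h after a single injection, close to the end of the light phase. The comparison covered the 3 WT cocaine and the 3 WT saline libraries of ZT11, 6 of the 66 distinct libraries of the series, and the 13414 genes of 24138 listed that reached 1 FPKM (fragments per kilobase of transcript, scaled to sequencing depth) in at least 1 of the 6. WT mice, labelled C57BL/6 and described in the paper's reporting summary as males of a C57BL/6J background aged 3 to 5 months, received 20 mg/kg cocaine or saline intraperitoneally at ZT3, and frozen punches of ventral striatum were taken at ZT11. The study asked how one dose of cocaine alters daily gene expression in this tissue, in WT mice and in iMSN-D2RKO mice. The latter lack the dopamine D2 receptor in striatal neurons of the indirect pathway, through floxed D2R alleles and a Cre driven by the D1R promoter, which acts in the embryonic precursors of these neurons. The effect at ZT11 in WT was set beside the effects at ZT7 and ZT15 in WT and at ZT11 in iMSN-D2RKO mice, each with 3 cocaine and 3 saline libraries of its own. The labels do not state whether the 3 libraries of a group came from separate animals, so p-values measure the spread between these libraries.

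Cocaine blocks the dopamine transporter, so that dopamine lingers at its receptors on the spiny projection neurons of the NAcc. D1 receptors raise and D2 receptors lower cyclic AMP in these cells, and immediate early genes such as Arc and Fos are transcribed within minutes of strong activation and return to low levels within hours. Clock genes run in the same neurons, with Dbp, the period genes and the reverse-erb genes at high levels in the late light phase and early night.

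The 6 libraries were alike in overall measures. They held 12700 to 12881 genes of at least 1 FPKM, with relative depths of 0.955 to 1.117 estimated from the low values. Correlations of log2 values over genes with a mean of at least 5 FPKM were 0.9544 to 0.9746 within a group and 0.9620 to 0.9782 between groups. Genes that define spiny neurons were abundant in every library. Ppp1r1b (DARPP-32) ran from 780 to 1266 FPKM, Penk from 970 to 1486 and Drd2 from 100 to 149, and the groups overlapped for all 3 genes. The lowest level of each was in saline replicate 3.

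The libraries did differ in genes of the tissue around the NAcc, and cocaine replicate 1 stood apart in them (these genes were chosen after their values were seen, as were Ppp1r1b, Fos, Egr1, Egr3, Folr1 and Tmem212). Ttr, a choroid plexus gene, was at 315 FPKM in cocaine replicate 1 and at 0 to 0.221 FPKM in the other 5 libraries. Prkcd, a protein kinase gene strong in thalamus, was at 65.0 FPKM there against 3.45 to 4.55 in the others, and the vesicular glutamate transporter gene Slc17a6 at 20.0 against 0.870 to 2.82. The same library was low in the cortical transporter gene Slc17a7, at 22.1 FPKM against 77.9 to 228 elsewhere. Saline replicate 3 held Oxt, the hypothalamic oxytocin gene, at 51.9 FPKM against 0 to 3.19 in the others. In bulk tissue, more cells of a type and more RNA per cell cannot be told apart. Counts and medians of the gene lists are therefore given below with their range over leaving out each of the 6 libraries in turn, and the libraries behind large shifts are named.

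**Figure D1:**
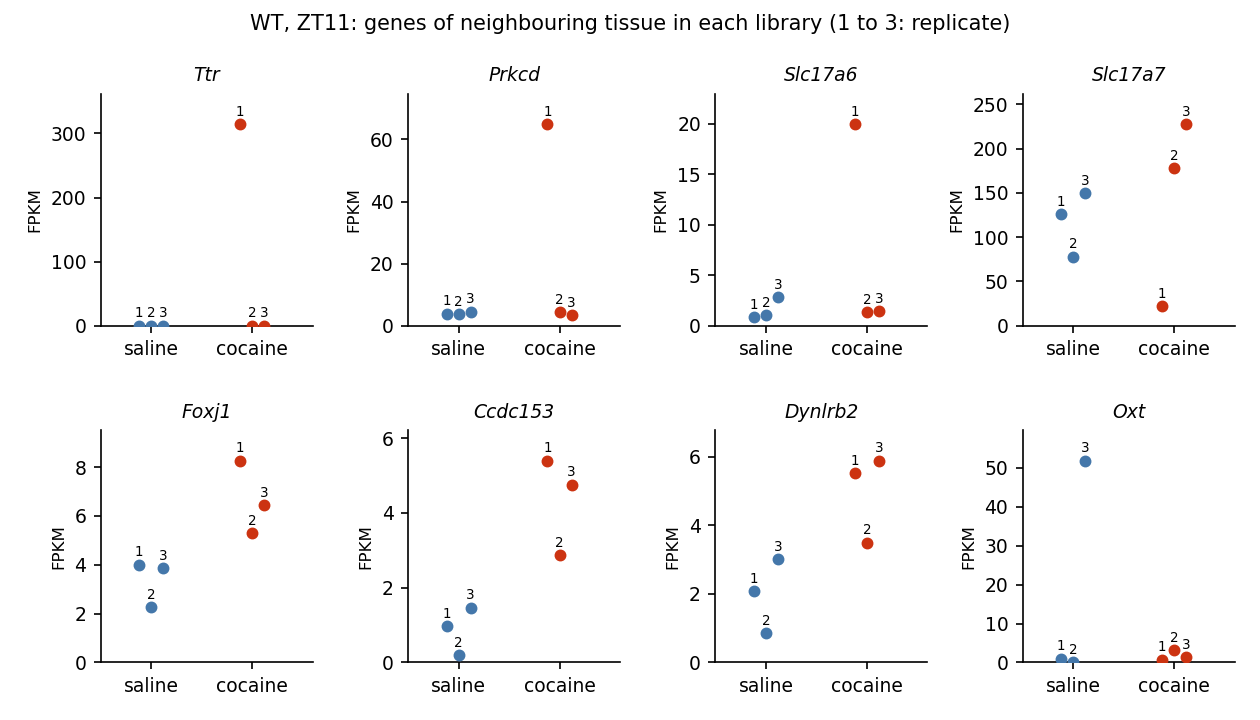
FPKM of 8 genes of neighbouring tissue and of the ventricle wall in the 3 saline and 3 cocaine libraries of WT ZT11, each point labelled with its replicate number. Ttr, Prkcd and Slc17a6 were high and Slc17a7 low in cocaine replicate 1, Oxt was high in saline replicate 3, and Foxj1, Ccdc153 and Dynlrb2 were higher in all 3 cocaine libraries than in any saline library.

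Across the whole transcriptome, 1 gene passed an adjusted p of 0.05 (0.00745% of genes tested), the pseudogene Tmem181b-ps. A further view at an unadjusted p under 0.05 held 424 genes higher (3.16%) and 335 lower (2.50%) after cocaine. The 2 groups did not overlap, cocaine above saline, for 751 genes (5.60%), and cocaine below saline for 807 genes (6.02%). The median log2 fold change, cocaine minus saline, was -0.01 over all genes tested. All fold changes are on the scale of log2(FPKM + 1), which understates those of low genes.

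**Figure D2:**
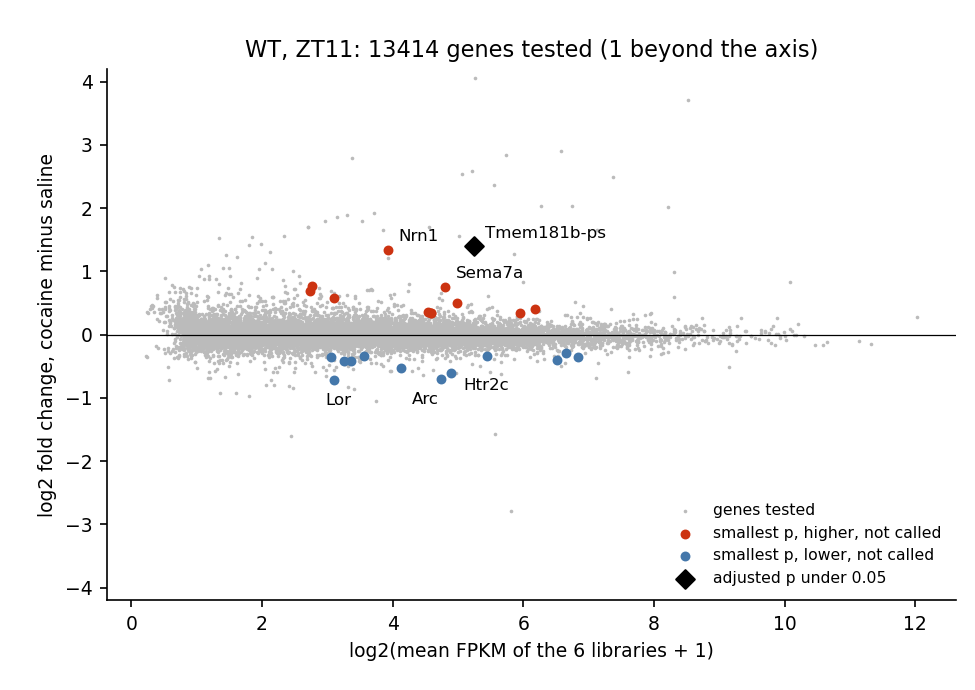
Log2 fold change (cocaine minus saline, WT ZT11) against log2 mean FPKM for the 13414 genes tested, with the called gene as a black diamond and the genes of smallest p with a mean of at least 5 FPKM in red (higher) and blue (lower). Most genes lie close to 0, Tmem181b-ps at 1.40 is the called gene, and Arc at -0.71 is the marked gene of smallest p among those lower.

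Tmem181b-ps rose after cocaine. It is a transcribed unprocessed pseudogene at chr17:6438524-6467022 on the minus strand of GRCm38 (mm10). Its level was 19.8, 22 and 18 FPKM in the saline libraries and 50.6, 56.9 and 55 FPKM in the cocaine libraries, a log2 fold change of 1.40 (SE 0.09, adjusted p = 0.00768). The groups were wide apart. Its coding relative Tmem181a lay at 9.48 to 10.4 FPKM after saline and at 9.22 to 10.5 after cocaine, and reads of such near copies may be shared between entries, so the level of the pseudogene is uncertain. The call was lost without cocaine replicate 2 (adjusted p = 0.0888), without saline replicate 1 (adjusted p = 0.076), and when the spread was taken from all 66 libraries or from the 33 WT libraries (adjusted p = 1 in each). Over the series the level of the gene varied from library to library in both treatments. It ran from 14.2 to 48.5 FPKM over 30 saline libraries and from 16.4 to 206 FPKM over 30 cocaine libraries. It was at 30 FPKM or more in 3 of the 30 saline and 13 of the 30 cocaine libraries, and at 63.8 FPKM in 1 iMSN-D2RKO library of ZT3, the time of injection. In WT it was at 26.2 to 94.8 FPKM after cocaine at ZT7 against 15.3 to 18.7 after saline, and at 46.5 to 206 against 20.4 to 23.7 at ZT15. At ZT19 and ZT23 the WT cocaine libraries, at 16.4 to 25.1 FPKM, overlapped those of saline, at 16.8 to 24.0. In iMSN-D2RKO mice at ZT11 the level was 18.1 to 49.8 FPKM after cocaine and 17.7 to 21.6 after saline, which overlapped, and the effect in WT exceeded that in iMSN-D2RKO mice by 0.95 (SE 0.38, adjusted p = 1). At ZT23 the iMSN-D2RKO libraries were apart, at 52.2 to 73.9 FPKM after cocaine and 19.2 to 40 after saline. At ZT19 they were apart in the other direction, at 17.4 to 18.9 FPKM after cocaine and 21.2 to 36.2 after saline. At ZT7 and ZT15 the iMSN-D2RKO groups overlapped.

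Arc held the smallest p-value after Tmem181b-ps, and it and the other immediate early genes missed the threshold. Arc, whose protein removes AMPA receptors from synapses, was at 30.1, 32.6 and 33.6 FPKM after saline and at 19, 18.1 and 20.8 FPKM after cocaine. The groups did not overlap, and the log2 fold change was -0.71 (SE 0.08, adjusted p = 0.171). Leaving out each library in turn gave log2 fold changes of -0.76 to -0.66 with adjusted p of 0.26 to 0.549. Npas4, an activity-induced transcription factor, was at 4.86, 6.70 and 6.76 FPKM after saline and at 2.62, 2.22 and 4.16 FPKM after cocaine. Its log2 fold change was -0.85 (SE 0.19, adjusted p = 0.808), again with no overlap. Junb, a partner of Fos in the AP-1 factor, was at 56.0, 68.6 and 54.6 FPKM after saline and at 30.6, 36.8 and 50.0 FPKM after cocaine (log2 fold change -0.62, SE 0.18, adjusted p = 0.854). Dusp1, a phosphatase that switches off mitogen-activated kinases, lay at 15.7 to 17.9 FPKM against 13 to 14.6. Fos was at 3.48, 3.80 and 6.09 FPKM after saline and at 2.18, 1.34 and 3.60 after cocaine, and the groups overlapped.

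The family was not uniform. Of 24 immediate early genes on the list, 20 were tested and none was called. At an unadjusted p under 0.05, 5 were lower (Npas4, Fos, Arc, Junb and Dusp1) and 1, Egr3, was higher. In 4 of the 20 the cocaine libraries were all below the saline libraries (all genes 6.02%), and in 0 all above (all genes 5.60%). The median log2 fold change was -0.09, against -0.01 over all genes. Egr1, a zinc finger factor, was at 85.1, 76.1 and 72.0 FPKM after saline and at 67.5, 60.4 and 95.4 FPKM after cocaine. The highest and the lowest of its 6 libraries were both in the cocaine group. Egr3 was at 50.9, 45.5 and 36.6 FPKM after saline and at 55.3, 55.2 and 50.9 FPKM after cocaine, so the groups met at 50.9. Each library was left out in turn. Npas4, Arc and Junb were at an unadjusted p under 0.05 in 6 of these 6 fits, Dusp1 in 5, Fos in 3 and Egr3 in 1. For the list, these fits gave 3 to 9 lower, 0 to 2 higher and a median of -0.25 to -0.02. It was 9 lower with -0.25 without cocaine replicate 3, 3 lower with -0.02 without cocaine replicate 2, and 4 lower with -0.05 without cocaine replicate 1. Cortical markers, whose cells also transcribe these genes, summed to 128 to 244 FPKM in saline, to 65.2 FPKM in cocaine replicate 1 and to 286 and 387 FPKM in cocaine replicates 2 and 3. The part of cortical tissue in the levels of the list was not tested.

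**Figure D3:**
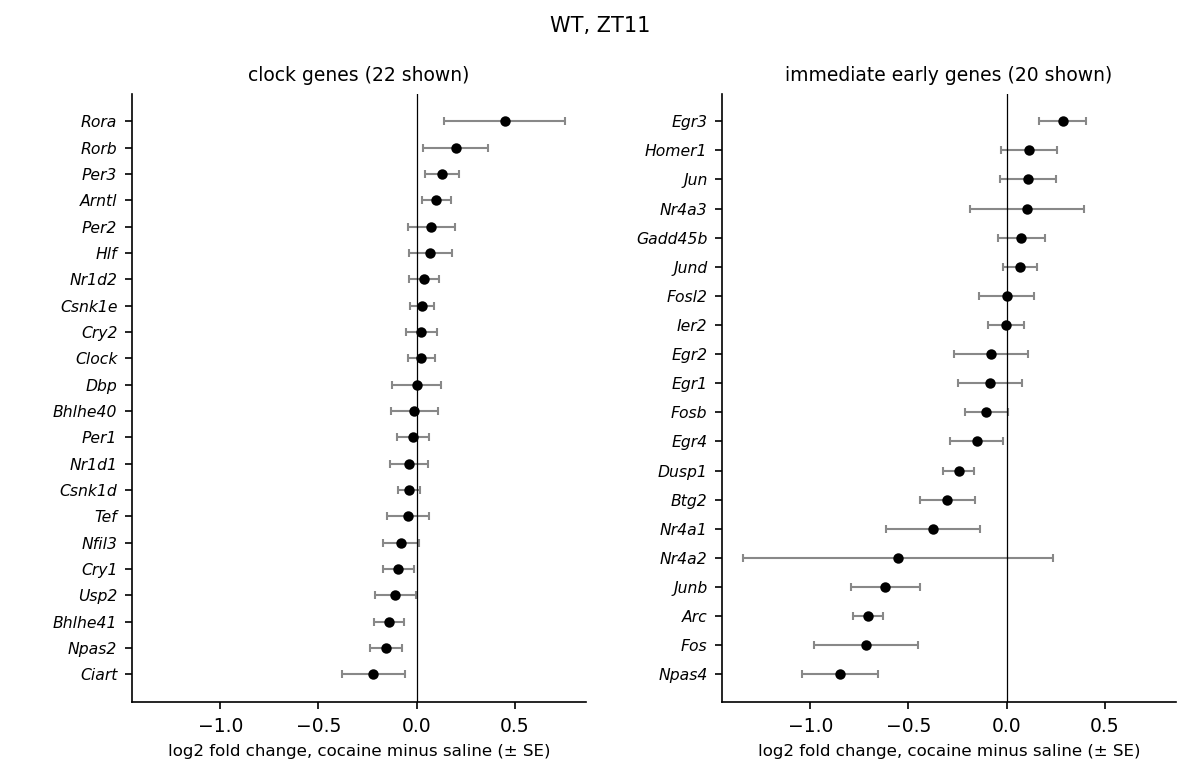
Log2 fold change (cocaine minus saline, WT ZT11) with its SE for 22 of the 24 clock genes and the 20 immediate early genes tested, each panel ordered by the fold change. Clock genes lie between -0.22 and 0.45, and immediate early genes reach down to -0.85 for Npas4, with none of either list called.

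Clock genes lay close to 0. All 24 clock genes on the list were tested, 0 were called and 0 reached an unadjusted p under 0.05 by limma, and their median log2 fold change was -0.01. Leaving out each library gave 0 or 1 in either direction and medians of -0.04 to 0.04. Dbp, an output factor of the clock, was at 171, 217 and 155 FPKM after saline and at 188, 180 and 170 FPKM after cocaine (log2 fold change 0.00, SE 0.12). Arntl (Bmal1), the positive limb of the loop, was at 8.75, 8.24 and 7.88 FPKM against 9.59, 8.59 and 8.69 (log2 fold change 0.10, SE 0.07). Per1 was at 33.8 to 39.1 FPKM in saline and 33.7 to 38.1 in cocaine, and Cry1, a repressor, at 13.7 to 16.2 and 13.1 to 14.3. Among the repressors, Per2, Cry2, Nr1d1, Nr1d2, Ciart and Bhlhe40 all overlapped between groups, as did the output genes Tef, Hlf and Nfil3, the activators Clock and Npas2 and Per3, Bhlhe41, Rorb, Csnk1e and Usp2. Csnk1d, a kinase of the period proteins, was the gene of the list without overlap, at 46.0 to 47.6 FPKM after saline and 45.1 to 45.9 after cocaine. Rora was at 13.3 FPKM in cocaine replicate 1 and at 4.51 to 5.56 in the other 5 libraries, so its log2 fold change of 0.45 (SE 0.31) was that of the library with thalamic markers.

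Most genes of dopamine and cyclic AMP signalling overlapped between the 2 groups. Of 52 on the list, 51 were tested, 0 were called, 1 was higher and 2 were lower at an unadjusted p under 0.05 by limma, and the median log2 fold change was 0.01. All 3 of these were receptors. Htr2c, the serotonin 2C receptor, was at 35.1, 32.6 and 36.4 FPKM after saline and at 19.5, 26.1 and 21.8 FPKM after cocaine (log2 fold change -0.61, SE 0.11, adjusted p = 0.752). Drd3, the D3 dopamine receptor of the ventral striatum, was at 3.57, 3.93 and 3.53 FPKM against 2.46, 2.74 and 2.19 (log2 fold change -0.44, SE 0.09, adjusted p = 0.773). Cnr1, the CB1 cannabinoid receptor, was at 26.0, 26.8 and 22.9 FPKM after saline and at 31.1, 38.4 and 38.5 FPKM after cocaine (log2 fold change 0.49, SE 0.10, adjusted p = 0.773). None of these 3 receptors overlapped between groups, and they were the only such members of the 51 tested. Over all genes, 5.60% were higher and 6.02% lower without overlap. With each library left out in turn, log2 fold changes were -0.72 to -0.52 for Htr2c, -0.49 to -0.38 for Drd3 and 0.43 to 0.59 for Cnr1. The counts of the list were less stable, at 1 to 4 higher and 2 to 8 lower with medians of -0.09 to 0.11. There were 8 lower without saline replicate 3, the library with the lowest spiny neuron genes, 6 lower without cocaine replicate 2, and 4 lower with 4 higher without saline replicate 2. The main receptors of spiny neurons did overlap. Drd1 was at 104, 106 and 76.3 FPKM against 78.1, 104 and 84.4, and Drd2 at 129, 149 and 100 against 118, 145 and 121. Adora2a, the adenosine receptor that opposes D2R, was at 164 to 247 FPKM after saline and 188 to 242 after cocaine. The 11 G protein, cyclase and RGS genes had a median of 0.04 and the 22 kinases, phosphatases and phosphodiesterases one of -0.01, with 0 of either at an unadjusted p under 0.05.

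**Figure D4:**
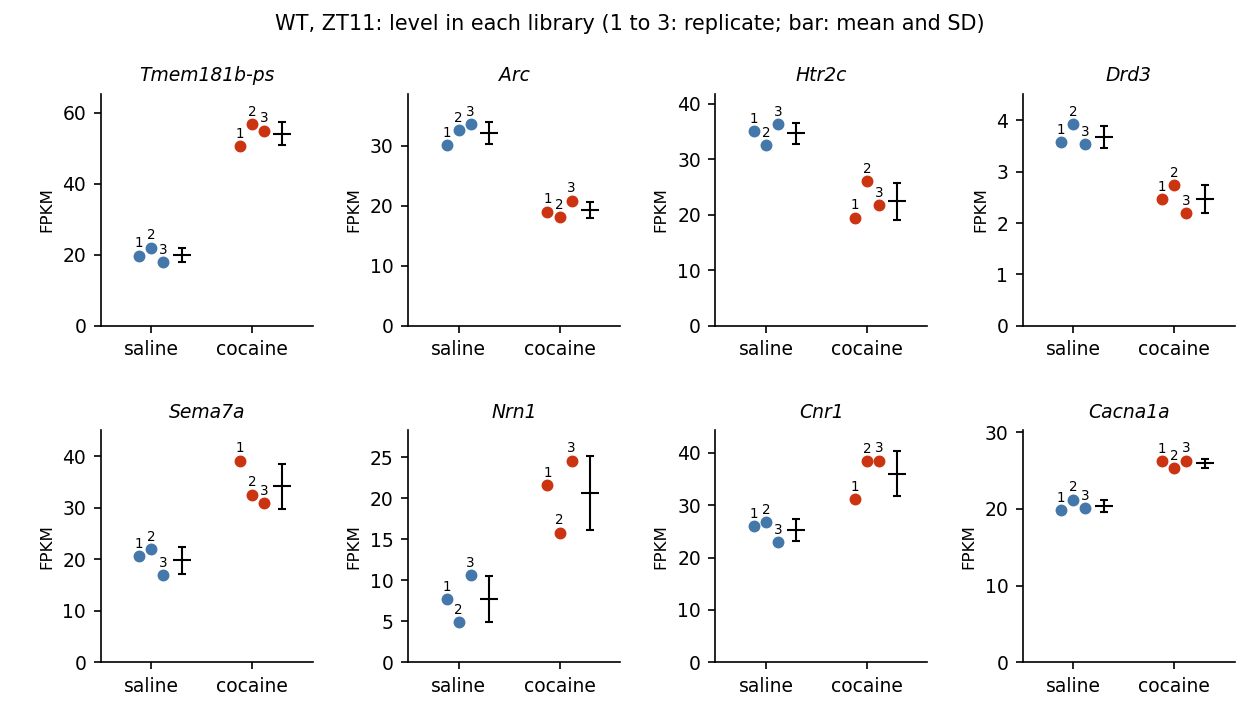
FPKM of 8 genes in the 3 saline and 3 cocaine libraries of WT ZT11, points labelled with replicate numbers and bars giving mean and SD. The groups are apart for all 8, cocaine lower for Arc, Htr2c and Drd3 and higher for the other 5, and among them Tmem181b-ps is the gene that passed the adjusted test.

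Markers of spiny neuron identity and neuropeptides had slightly negative medians. Of 18 identity genes, 0 were called and 1 was lower at an unadjusted p under 0.05, with a median of -0.08. That gene was Foxp2, a forkhead factor, at 14.4 to 16.1 FPKM after saline and 10.8 to 13.8 after cocaine (log2 fold change -0.27, SE 0.10). Penk, which encodes the enkephalin precursor, was at 1486, 1389 and 970 FPKM against 1223, 1317 and 1187. Of 23 neuropeptide genes, 20 were tested, 0 were called and 2 were lower at that level, with a median of -0.09. Crh, corticotropin-releasing hormone, was at 3.46, 4.04 and 6.93 FPKM after saline and at 3.00, 1.87 and 1.98 FPKM after cocaine (log2 fold change -0.79, SE 0.23, adjusted p = 0.854). Pcsk1n, an inhibitor of the prohormone convertase, was at 172 to 196 FPKM against 145 to 170. With each library left out, there were 0 to 2 lower identity genes, with medians of -0.17 to -0.02, and 1 to 3 lower and 0 to 3 higher neuropeptide genes, with medians of -0.14 to -0.04. The 3 higher neuropeptide genes appeared without saline replicate 1. The log2 fold change of Crh ran from -0.96 to -0.55.

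Among genes with a mean of at least 5 FPKM, the 12 of smallest p in each direction were apart between the groups and, other than Tmem181b-ps, none was called. All 24 kept their sign and an unadjusted p under 0.05 when each library was left out in turn. They had been picked for small p in the same 6 libraries, so this gives no independent support. The other 11 higher genes had log2 fold changes of 0.34 to 1.35 and adjusted p of 0.752 or 0.773. Sema7a, a membrane semaphorin, was at 20.6, 22 and 16.9 FPKM after saline and at 39.2, 32.6 and 30.9 FPKM after cocaine (log2 fold change 0.76, SE 0.12). Nrn1 (neuritin), a secreted plasticity factor, was at 7.68, 4.92 and 10.6 FPKM against 21.6, 15.8 and 24.6 (log2 fold change 1.35, SE 0.25). Ace, the angiotensin-converting enzyme gene, was at 4.10, 4.69 and 3.58 FPKM against 8.19, 7.20 and 6.37. For Sema7a, Nrn1 and Ace the lowest cocaine library was above the highest saline library. Cacna1a, the pore subunit of P/Q-type calcium channels, was at 19.8 to 21.2 FPKM after saline and 25.3 to 26.3 after cocaine. Igsf9b, an adhesion protein of inhibitory synapses, was at 3.33 to 4.52 FPKM against 6.11 to 9.22, and Lynx1, a modulator of nicotinic receptors, at 59.2 to 62.7 against 72.9 to 87.8. Phospho1, Cxxc5, Gpr162 and Dab2ip had log2 fold changes of 0.58, 0.36, 0.35 and 0.35.

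The 12 lower genes had log2 fold changes of -0.72 to -0.30. Besides Arc and Htr2c, the set held Lor, the loricrin gene of cornified epithelium, at 9.52, 8.76 and 10.9 FPKM after saline and 5.49, 5.53 and 5.41 after cocaine (log2 fold change -0.72, SE 0.09, adjusted p = 0.236). Med30, a subunit of the Mediator complex, was at 18.0 to 21.0 FPKM against 11.8 to 14.3, and Carhsp1, an RNA-binding cold-shock domain protein, at 45 to 48.7 against 36.8 to 37.7. Genes of the translation machinery were among them. The ribosomal gene Rps26 was at 124, 127 and 132 FPKM after saline and 92.4, 103 and 103 after cocaine, and Eif3f, a subunit of initiation factor 3, at 106, 110 and 115 against 88.4, 92.3 and 88.4. Rab27b, a vesicle exocytosis GTPase, had a log2 fold change of -0.42, and 1600014C10Rik, Cbr4, Zcchc12 and Kctd4 had -0.42, -0.33, -0.40 and -0.35. Fold changes moved with the base composition of transcripts in these libraries. The median was -0.039 over the 3039 genes lowest in GC content, with 58 genes higher and 96 lower at an unadjusted p under 0.05. It was 0.033 over the 3042 genes highest in it, with 165 higher and 48 lower. With each library centred within GC bins, a step chosen after seeing the data, Tmem181b-ps was again the 1 gene called.

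Ribosomal protein genes had a negative median and more lower members than higher. Of 52 on the list, 47 were tested, 0 were called, 8 were lower and 0 higher at an unadjusted p under 0.05, and 38 of the 47 had a negative log2 fold change, with a median of -0.10. In 12 the cocaine libraries were all below the saline libraries (all genes 6.02%), and in 1 all above (all genes 5.60%). Rpl6 was at 21.4, 19.9 and 21.0 FPKM after saline and at 17.1, 17.1 and 18.7 after cocaine, Rps6 at 3.54 to 4.02 against 2.74 to 3.12, and Rps2 at 14.6 to 16.6 against 12.7 to 13.5. The genes have many near-identical pseudogene copies, so their levels here are uncertain. The fits that left out 1 library gave 3 to 12 lower and a median of -0.13 to -0.08, with 3 lower without cocaine replicate 1, 4 without cocaine replicate 2, 5 without cocaine replicate 3 and 12 without saline replicate 1. The median was -0.12 after removal of GC content. Transport genes between the endoplasmic reticulum (ER) and the Golgi also had a negative median, -0.06, with 34 of 41 negative and 0 called. In 6 the cocaine libraries were all below the saline libraries (all genes 6.02%), and in 1 all above (all genes 5.60%). At an unadjusted p under 0.05, 2 of the 41 were lower (all genes 2.50%) and 0 higher. Arf4, a coat-recruiting GTPase, was at 61.9 to 64.8 FPKM against 52.1 to 58.2, and the coat subunit Copg2 at 27.2 to 29.7 against 24.4 to 26.1. Without cocaine replicate 1, cocaine replicate 3 or saline replicate 3, 0 of the 41 were lower at that level. The 63 oxidative phosphorylation genes tested had a median of 0.01, with 0 at that level in either direction.

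Stress and metabolic groups stayed close to the value of all genes. Of 37 heat-shock chaperones tested 0 were called, 1 (Dnajb5) was higher and 1 (Cct4) was lower at an unadjusted p under 0.05, with a median of 0.00. The 24 ER chaperone and unfolded protein response genes and the 25 cholesterol synthesis genes held 0 at that level by limma, with medians of -0.04 and -0.01. Of the 8 cold-inducible genes, 2 were lower without overlap (all genes 6.02%) and 0 higher (all genes 5.60%). The 2 were Cirbp and Rbm3, RNA-binding proteins that follow brain temperature. Cirbp was at 92.9, 77.6 and 88.1 FPKM after saline and at 64.9, 72.5 and 72.6 after cocaine (log2 fold change -0.29, SE 0.09, adjusted p = 0.854). Rbm3 was at 4.22 to 5.41 FPKM against 3.40 to 4.10 (log2 fold change -0.26, SE 0.11). The median of the 8 genes of that list was 0.00. Leaving out each library gave 1 or 2 lower and 0 or 1 higher at an unadjusted p under 0.05. Cirbp was lower at that level in 6 of these 6 fits and Rbm3 in 2. Of 24 glucocorticoid receptors and induced genes, 1 was higher at that level, the cell cycle inhibitor Cdkn1a, at 7.53 to 11.5 FPKM against 11.4 to 14, and the median was 0.05. Of 27 mitogen-activated kinase and DUSP genes, 2 were lower, Dusp1 and the kinase Map2k1, with Map2k1 at 195 to 216 FPKM after saline and 170 to 185 after cocaine. The 18 interferon and inflammatory genes tested had a median of 0.03 and 0 at that level. The medians of these 7 lists stayed, with each library left out, between -0.10 and 0.10. The largest counts that this gave were 4 lower ER genes without saline replicate 2, 3 higher heat-shock genes without saline replicate 1, 3 higher glucocorticoid genes without cocaine replicate 3 or saline replicate 3, and 3 lower kinase and DUSP genes without saline replicate 1 or saline replicate 3. Without cocaine replicate 1, 0 heat-shock and 0 glucocorticoid genes were at that level.

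PPAR genes, nuclear receptors of lipids that the study followed in this tissue, were low or overlapping. Pparg was below the level tested, at 0.169 to 0.286 FPKM after saline and 0.272 to 0.460 after cocaine. Of 15 PPAR and RXR genes, 14 were tested, 0 were called and 2 were higher at an unadjusted p under 0.05, with a median of 0.04. The oxysterol receptor gene Nr1h2 was 1 of them, at 27.7 to 31.9 FPKM against 32.8 to 34.9. Of 24 PPAR-regulated lipid genes tested, 2 were lower and 0 higher at that level, with a median of -0.06. Angptl4, an inhibitor of lipoprotein lipase, was at 1.55, 1.47 and 1.78 FPKM after saline and at 1.24, 0.972 and 0.658 FPKM after cocaine (log2 fold change -0.42, SE 0.14, adjusted p = 0.854). Of 18 prostaglandin and arachidonic acid genes tested, 2 were higher, with a median of 0.11. Dagla, which makes the endocannabinoid 2-AG, was at 22, 23.8 and 18.7 FPKM after saline and at 30.9, 28.0 and 25.7 after cocaine (log2 fold change 0.38, SE 0.11, adjusted p = 0.854). Ptgfrn was the other. In the fits without 1 library there were 1 to 3 higher and 0 lower PPAR and RXR genes, 0 to 3 lower and 0 or 1 higher lipid genes, and 1 to 3 higher and 0 or 1 lower prostaglandin genes. The prostaglandin median ran from 0.03, without cocaine replicate 1, to 0.15, and the log2 fold change of Dagla from 0.29 to 0.45.

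Among ion channel genes, the median log2 fold change was 0.10 for potassium channels and -0.15 for GABA-A receptor subunits. All 50 potassium channel genes were tested, 0 were called, 5 were higher and 1 lower at an unadjusted p under 0.05, and 37 had a positive log2 fold change. Kcnk1, a leak channel of the K2P class, was at 36.5, 40.5 and 33.6 FPKM after saline and at 45.2, 46.9 and 45.9 FPKM after cocaine (log2 fold change 0.32, SE 0.08, adjusted p = 0.854). Kcnj9, a G protein-gated channel, was at 14.1 to 18.3 FPKM against 19.9 to 21.3. Kcnd1, an A-type channel that the study examined, was at 4.14, 4.42 and 3.78 FPKM against 5.17, 4.64 and 4.95 (log2 fold change 0.21, SE 0.08, adjusted p = 0.867). Leaving out each library kept the median of the list between 0.09 and 0.14 but gave 2 to 6 higher and 0 to 3 lower. Without saline replicate 1, 2 of the 50 were higher (all genes 3.45%), and without saline replicate 3, 4 were higher and 3 lower. Of 16 GABA-A subunit genes 14 were tested, 0 were called, 2 were lower and 0 higher at that level, and leaving out each library gave 1 to 3 lower and medians of -0.22 to -0.09. Gabrg1 was at 10.3, 8.54 and 13.2 FPKM after saline and at 8.19, 6.91 and 6.58 FPKM after cocaine, without overlap. Gabrd, the delta subunit of receptors outside synapses, overlapped, at 80.6 to 123 FPKM after saline and 104 to 122 after cocaine. Of 32 glutamate receptor genes tested, 2 were higher (Grin2c and Grm4) and 1 was lower (Gria1), with a median of 0.02. Of 20 activity-induced plasticity genes, 2 were higher, Nrn1 and the pentraxin Nptx2, and 0 lower, with a median of 0.01. Nptx2 was at 14.3 to 18.0 FPKM after saline and 18.3 to 23.9 after cocaine. Leaving out cocaine replicate 1 gave 0 glutamate receptor genes in either direction, and 5 plasticity genes higher and 2 lower. Over all 6 such fits the glutamate receptor counts were 0 to 3 in each direction, and the plasticity counts 1 to 5 higher and 0 to 2 lower.

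Of the marker lists, the ventricle wall had the highest median, 0.75. Of 12 choroid plexus and ependyma markers 11 were tested, 0 were called, and 4 were higher and 0 lower at an unadjusted p under 0.05. In 7 the cocaine libraries were all above the saline libraries (all genes 5.60%). Only 6 of the 11 reached 1 FPKM in a library other than cocaine replicate 1, and the others were tested through that library alone. The choroid plexus genes were high in cocaine replicate 1 alone, as with Ttr and with the folate receptor gene Folr1, at 2.96 FPKM there and at 0.0419 to 0.175 in the other libraries. Genes of ciliated ependymal cells were higher in all 3 cocaine libraries. Foxj1, the regulator of motile cilia, was at 4.00, 2.25 and 3.86 FPKM after saline and at 8.27, 5.29 and 6.43 FPKM after cocaine (log2 fold change 0.82, SE 0.20, adjusted p = 0.854). Ccdc153 was at 0.964, 0.202 and 1.46 FPKM against 5.40, 2.86 and 4.75 (log2 fold change 1.54, SE 0.29, adjusted p = 0.752). Dynlrb2, a dynein light chain of cilia, and Tmem212 had log2 fold changes of 1.04 and 1.43. Without cocaine replicate 1, 6 markers were tested, 4 were higher at that level and 1 lower, and the median was 0.82. The summed level of the list was 12.9 to 20.4 FPKM after saline, and 22.8 and 30.9 FPKM in cocaine replicates 2 and 3, and in replicate 1 it was mostly Ttr.

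The other marker lists had medians of -0.40 to 0.05. Microglia markers had a median of -0.13, with 12 of 13 negative. They summed to 357 to 433 FPKM after saline and 355 to 390 after cocaine. In 2 the cocaine libraries were all below the saline libraries (all genes 6.02%). At an unadjusted p under 0.05, 2 were lower (all genes 2.50%). P2ry12, a purinergic receptor of resting microglia, was at 20.4, 21.4 and 17.9 FPKM against 17.2, 16.0 and 17.1, and Aif1 at 5.14 to 7.74 against 4.43 to 5.09. When each library was left out there were 0 to 6 lower microglia markers and medians of -0.23 to -0.07, with 6 lower without saline replicate 3 and 0 lower without cocaine replicate 2, saline replicate 1 or saline replicate 2. All 15 oligodendrocyte markers had negative fold changes, 0 of them at that level by limma, with a median of -0.14, and their sum of 2458 to 3803 FPKM after cocaine spanned that of saline, 3000 to 3303. The highest of the sums, 3803 FPKM, was that of cocaine replicate 1. Without that library 12 of the 15 oligodendrocyte markers were lower at an unadjusted p under 0.05 (all genes 2.43%) and the median was -0.32, while leaving out any other library gave 0 lower and medians of -0.20 to -0.04. Astrocyte markers (1 higher, Gfap), endothelial and mural markers (1 higher, Tagln) and striatal interneuron markers (1 higher, Slc18a3, and 1 lower, Lhx6) had medians of 0.05, 0.05 and 0.02. Of the blood markers 4 entries were tested, all negative with a median of -0.40, 1 of them, an alpha globin entry, lower at that level, and they summed to 145 to 229 FPKM after saline and 113 to 171 after cocaine. Leaving out each library gave 0 to 4 lower blood entries, with 4 lower without saline replicate 2, and also 3 lower astrocyte markers without saline replicate 2 and 3 higher endothelial and mural markers without cocaine replicate 2. Cortical markers had a median of -0.05 that ran from -0.56 to 0.70 over leaving out each library, with Nrn1 the single member past that level. Without cocaine replicate 1, 7 of the 12 cortical markers were higher at that level and the median was 0.70. The cortical sum of that library, 65.2 FPKM, was the lowest of the 6. Septum, pallidum and hypothalamus markers had a median of -0.08, which was -0.29 without cocaine replicate 1 and 0.10 without saline replicate 3, and 2 lower members, the LIM factors Lhx6 and Lhx8 of ventral forebrain neurons. Lhx8 was at 5.11, 5.77 and 5.64 FPKM after saline and at 3.99, 3.88 and 3.66 FPKM after cocaine (log2 fold change -0.43, SE 0.08, adjusted p = 0.752), and Lhx6 at 10 to 13.3 against 8.13 to 8.91. The part of these cell types in the other results was not tested.

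The effect of cocaine at ZT11 was then tested against the effect in 3 other pairs of groups. Against ZT7 in WT, 4 h after injection, 0 of 13644 genes differed at an adjusted p of 0.05 by limma and 978 (7.17%) at an unadjusted p under 0.05. The smallest p with a mean of at least 5 FPKM were those of Nrn1, Spryd3 and Phospho1. Nrn1 was at 14.3 to 21.9 FPKM after saline and 6.59 to 7.25 after cocaine at ZT7, a log2 fold change of -1.14 (SE 0.15) against 1.35 at ZT11, and the difference was 2.49 (SE 0.33, adjusted p = 0.133). The saline libraries of Nrn1 were higher at ZT7 and the cocaine libraries higher at ZT11. The difference was called without saline replicate 3 of ZT11 (adjusted p = 0.038). That was the only 1 of 12 limma fits leaving out 1 library that called it, and the adjusted p reached 0.571. Nrn1 is also on the list of cortical markers, and the part of cortical tissue in its levels was not tested. Phospho1 had -0.42 at ZT7 against 0.58 at ZT11 (difference 1.0, SE 0.18, adjusted p = 0.439). Spryd3 was at 39.7 to 45.5 FPKM after saline and 65.6 to 83.4 after cocaine at ZT7, and overlapped at ZT11, at 70.3 to 85.8 and 66.4 to 75.3.

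Against ZT15 in WT, 12 h after injection and in the dark phase, 0 of 13933 genes differed at an adjusted p of 0.05 by limma and 257 (1.84%) at an unadjusted p under 0.05. The 3 genes of smallest p with a mean of at least 5 FPKM were Rpl29, Arc and Dusp1. Arc was at 38.0 to 45.2 FPKM after saline and 57.8 to 100 after cocaine at ZT15, a log2 fold change of 0.89 (SE 0.22) against -0.71 at ZT11. The difference was -1.60 (SE 0.24, adjusted p = 0.114). Cocaine replicate 3 of ZT15 had a relative depth of 0.346, the lowest of the series, and without it the difference was -1.41 and was called (adjusted p = 0.0472), as it was without cocaine replicate 1 of ZT15 (adjusted p = 0.00817). Those were the only 2 of 12 limma fits leaving out 1 library that called Arc, and its adjusted p reached 0.436. Dusp1 was at 15 to 15.7 FPKM after saline and 20.1 to 24.0 after cocaine at ZT15, opposite in order to ZT11, with a difference of -0.70 (SE 0.13, adjusted p = 0.519). Rpl29 had a difference of -5.20 (SE 0.69, adjusted p = 0.0999) and was listed at 0.121 to 0.222 FPKM in the saline libraries of ZT15 and at 29.8 to 88.3 FPKM in those of ZT11. Htr2c and Cnr1 had effects of the same sign at both times, at -0.63 (SE 0.17) and 0.64 (SE 0.27) at ZT15, and their differences of 0.02 (SE 0.20) and -0.14 (SE 0.31) were within 1 SE of 0.

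**Figure D5:**
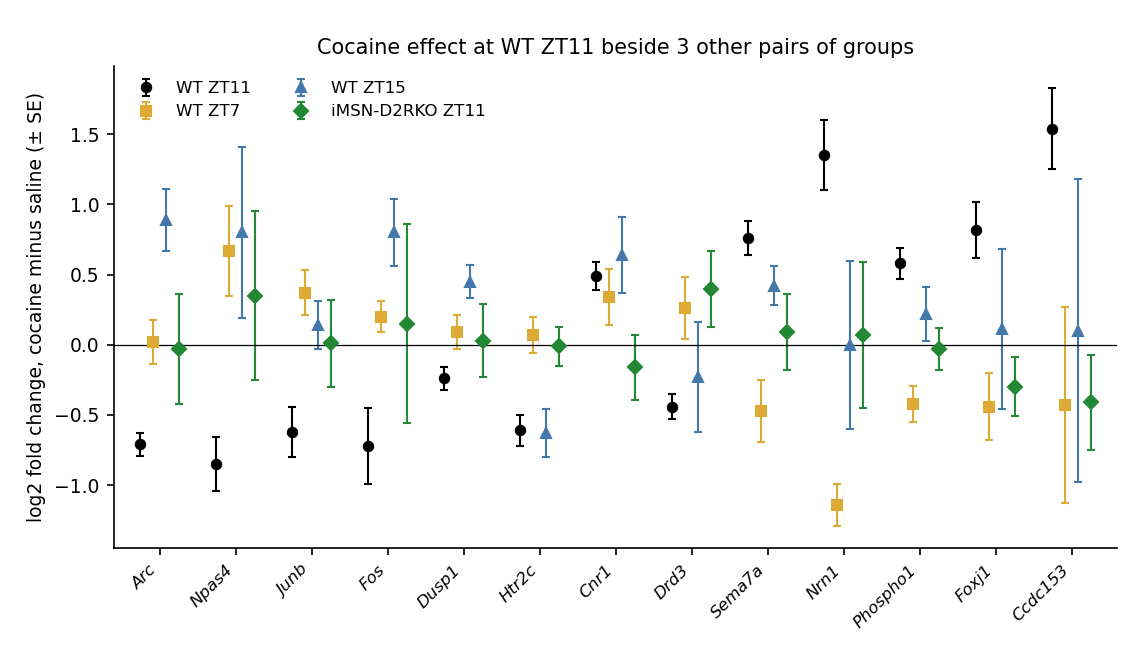
Log2 fold change, cocaine minus saline, with its SE for 13 genes at WT ZT11 (black circles), WT ZT7 (yellow squares), WT ZT15 (blue triangles) and iMSN-D2RKO ZT11 (green diamonds). Arc is at -0.71 at WT ZT11 and at 0.89 at WT ZT15, Nrn1 at 1.35 at ZT11 and -1.14 at ZT7, and no difference between effects passed the adjusted test.

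Against iMSN-D2RKO mice at ZT11, 0 of 13656 genes differed at an adjusted p of 0.05 by limma and 293 (2.15%) at an unadjusted p under 0.05. Among the 3 genes of smallest p with a mean of at least 5 FPKM were 1110017D15Rik and Tm4sf1, with differences of 0.94 and 0.68 (adjusted p = 1 each). For 1110017D15Rik the level was 3.71 to 4.17 FPKM after saline and 5.33 to 6.34 after cocaine in WT, and 6.84 to 9.53 and 4.19 to 6.64 in iMSN-D2RKO mice. Arc spread widely among iMSN-D2RKO libraries, at 26.0 to 62.8 FPKM after saline and 28.7 to 68.5 after cocaine, and its effect there was -0.03 (SE 0.39). The difference from WT was -0.68 (SE 0.45, adjusted p = 1), which this spread could not separate from 0. Htr2c was at 17.8 to 24.9 FPKM after saline and 18.6 to 23.8 after cocaine in iMSN-D2RKO mice, levels close to those of WT after cocaine, with a difference of effects of -0.61 (SE 0.19, adjusted p = 1). Cnr1 and Drd3 had effects of -0.16 (SE 0.23) and 0.40 (SE 0.27) there, opposite in sign to those in WT. The iMSN-D2RKO groups overlapped for both, with saline libraries at 24.9 to 50.0 FPKM for Cnr1 and 0.682 to 2.80 for Drd3. The differences from WT were 0.65 (SE 0.28) for Cnr1 and -0.83 (SE 0.31) for Drd3, and neither passed the adjusted test. The ependymal gene Ccdc153 was at 3.10 to 8.98 FPKM after saline and 2.49 to 5.11 after cocaine in iMSN-D2RKO mice, so that the 3 WT saline libraries, at 0.202 to 1.46 FPKM, were the low ones among the 12.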

How the data were processed

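RNA from ventral striatum punches was sequenced by the authors from stranded poly(A) libraries with single-end reads, aligned to mm10 with TopHat and Bowtie2, and summarised per gene with Cufflinks and Cuffnorm. The submitters' processing notes name CASAVA 1.8.2. The deposited values are FPKM put on one scale by the authors. The Cuffnorm option and read numbers are not given in the sources used here, so no counting interval was computed and the precision rests on 3 libraries per group.

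All 72 columns were mapped to samples, and the 6 libraries of ZT3 are listed in 2 identical columns each, which leaves 66. Entries that join genes (355) were kept as 1 gene. Genes reaching 1 FPKM in any fitted library were tested as log2(FPKM + 1) with limma 3.58.1 in R 4.3.3 (empirical Bayes with mean-variance trend, Benjamini-Hochberg adjustment), on the 6 libraries for the main comparison and on 12 libraries for each of 3 interaction tests. Scripts were tested on simulated data. Relative depth was estimated from 1439 genes of low, stepped values. Positions and transcript GC content (12720 genes matched, 94.8%) were matched by gene symbol to the GENCODE annotation of GRCm38, the build of the files. The authors filtered up to 1 outlying replicate by Dixon's test, a step not applied here.

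Named genes are the called gene, the 12 genes of smallest p in each direction with a mean of at least 5 FPKM, genes the paper names, up to 3 members of smallest p of each of 31 lists (753 genes) with a mean of at least 1 FPKM, every clock gene, and the 3 of smallest p with a mean of at least 5 FPKM in each interaction test. Some genes that the rule names are not reported here. The members and lists were chosen with earlier results of these data known. Tables were computed with Python 3.11.15, numpy 2.4.6 and pandas 2.3.3. Alternatives covered pseudocount, filter, scaling, replicate block, trend, spread, a library score as covariate, GC content and leaving out each library.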

Additional observations from a re-analysis of the deposited data

How the results depend on the processing

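The main comparison called 1 gene, Tmem181b-ps, with a pseudocount of 0.1, a filter on mean FPKM, no filter, median-ratio scaling, quantile normalization, no variance trend or GC content removed (the last chosen after seeing the data). It called 0 with a replicate block (741 genes at an unadjusted p under 0.05), 0 with the spread of 66 libraries (94), 0 with that of 33 WT libraries (151) and 0 with the library score as covariate (853). Leaving out each library, it called 0 to 3. There were 3 without cocaine replicate 1 (Tmem181b-ps, Mir6392 and an entry that joins Mir8098 with Wdfy2), 2 without cocaine replicate 3, 0 without cocaine replicate 2, and another gene, Mir8112, without saline replicate 1. Replicate numbers do not pair the libraries: deviations of same-numbered libraries correlated at -0.12, -0.11 and 0.02. The test against ZT7 called 1 gene with a replicate block, Nrn1, and 0 to 1 leaving out each library. That against ZT15 called 2 with a pseudocount of 0.1 (Alb and Rpl29), 2 with no filter (Mup20 and Saa4) and 0 to 10 leaving out each library, the 10 without saline replicate 3 of ZT15 (Alb and other plasma protein genes among them). That against iMSN-D2RKO called 3 with a replicate block, Ccdc153, Dynlrb2 and Tmem212. The cause of these shifts was not tested. Of 65 genes, 6 changed sign, all with fold changes near 0: leaving out each library gave -0.28 to 0.05 for Egr1, -0.12 to 0.17 for Drd2, -0.06 to 0.23 for Adora2a, -0.21 to 0.10 for Penk, -0.10 to 0.14 for Dbp and -0.07 to 0.04 for Per1, and removing GC content gave -0.06 for Dbp. Of 527 list medians under alternatives, 519 moved by less than 1 SD between replicates. The other 8 were clock genes (0.04) and cholesterol genes (-0.10) without saline replicate 2, immediate early genes (-0.25), PPAR and RXR genes (0.11) and kinase and DUSP genes (-0.05) without cocaine replicate 3, prostaglandin genes (0.03) and septum, pallidum and hypothalamus markers (-0.29) without cocaine replicate 1, and choroid plexus and ependyma markers (1.40) with a pseudocount of 0.1. Lists whose libraries spread widely could shift further without counting here, such as oligodendrocyte markers (-0.32, with 12 lower at an unadjusted p under 0.05) without cocaine replicate 1. Without read numbers, what depth limits cannot be given.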
